A study of Mus musculus with 2 samples.

Results

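The genes described here are 10 ubiquitin ligases and adaptors of ligases, several of them known to limit T-cell activation, and all 10 were listed among the 48321 genes counted by RNA-seq in mature thymocytes of *MHC-II0:CD8ab Tg* mice. They were taken by symbol, and were chosen with earlier results of these data known. They include the Cbl ligases *Cbl* and *Cblb*, the Nedd4-family ligases *Nedd4*, *Nedd4l* and *Itch*, and the adaptors *Ndfip1* and *Ndfip2*. The remaining ligases are *Rnf128*, *Peli1* and *Traf6*. The study sequenced 1 group of 2 libraries, replicate 1 and replicate 2, from CD4- cells sorted from the mature, CD24-low and TCRβ-high thymocytes. The mice, labelled as C57Bl/6, were without I-Aβ, a chain of MHC class II (*I-Ab-/-*), and carried *Cd8Δab* on both chromosomes, which removes the coding regions of endogenous CD8α and CD8β. CD8α and CD8β came instead from cDNAs in *Rosa26* (*Rosa26 8a/8b*), switched on by *Cd4-Cre*, a Cre recombinase driven by *Cd4* regulatory elements. Age and number of mice were not given in the sources used here, and the labels call the cells CD4-CD8- in the titles and CD8+ in the cell type. No control library was analysed here, so the values are levels and differences between the 2 libraries, and no effect of the transgene was measured.

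Ubiquitin ligases attach ubiquitin to chosen proteins and thereby send them to the proteasome, to the lysosome or into signalling complexes. Cbl and Cbl-b are RING ligases that bind phosphorylated kinases and adaptors near the TCR. Nedd4, Nedd4-like and Itch are HECT ligases with WW domains, and Ndfip1 and Ndfip2 are membrane adaptors that bind those domains and activate the ligases. GRAIL, encoded by *Rnf128*, is a transmembrane RING ligase known from anergic T cells, while Pellino 1 and TRAF6 are RING ligases of innate receptor signalling that also restrain T cells. Loss of Cbl-b, Itch or Ndfip1 in mice is known to cause T-cell activation and inflammation.

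Because several of these genes are relatives, it was first examined whether a read of 50 bases can tell them apart. In their principal coding transcripts in GENCODE M21 (GRCm38, the same build as mm10), the most alike 50 bases of *Cbl* and *Cblb* still differed at 6 positions. This stretch lies within exon 8 of *Cbl* at chr9:44164190-44164239 on the minus strand and within exon 9 of *Cblb* at chr16:52142785-52142834 on the plus strand, where the start of the RING finger is encoded. The sequences are shown 5′ to 3′ because this pair had the fewest differences of those compared, and capitals mark the bases that differ.
Cbl: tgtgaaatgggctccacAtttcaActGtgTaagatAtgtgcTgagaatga
Cblb: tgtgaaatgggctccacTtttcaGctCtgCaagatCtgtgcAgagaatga
All 6 differing bases were at the third position of a codon. The most alike 50 bases of *Itch* and *Nedd4* differed at 11 positions, of which 5 were at the third position of a codon. In *Itch* they lie within exon 19 at chr2:155209102-155209151, and in *Nedd4* they span the junction of exons 19 and 20 between chr9:72735214-72736690, both on the plus strand.
Itch: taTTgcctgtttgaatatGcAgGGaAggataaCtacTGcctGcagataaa
Nedd4: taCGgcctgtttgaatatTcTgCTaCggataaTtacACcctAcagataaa
The fewest differences were 7 between *Nedd4* and *Nedd4l*, 12 between *Itch* and *Nedd4l*, and 8 between *Ndfip1* and *Ndfip2*. Exact matches of 50 bases to transcripts of any other gene, on either strand, made up 0% of the windows of *Cblb*, *Rnf128*, *Peli1* and *Traf6*. The share was 2.07% for *Cbl*, 0.762% for *Nedd4*, 1.06% for *Nedd4l*, 2.14% for *Itch* and 2.13% for *Ndfip1*. It was 4.37% for *Ndfip2*, whose exons overlap those of the pseudogene *Gm16259* on the opposite strand over 553 bases. *Gm16259* itself had 11 and 7 counts. The exons of *Nedd4l* overlap those of an antisense gene over 277 bases, and the strand setting of the counting is not given in the sources used here.

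Counts on genes summed to 16732644 in replicate 1 and 16245849 in replicate 2, so 3 counts, taken as the floor, equal 0.179 and 0.185 CPM (counts scaled to a common total on genes of 1000000). The libraries were not alike in every respect. The RNA of the inactive X chromosome, *Xist*, stood at 2.03 and 1555 CPM in replicates 1 and 2, and the Y-linked *Ddx3y* had 2450 and 0 counts. Markers of mature T cells summed to 4760 and 4270 CPM and those of innate memory-like CD8 T cells to 904 and 1182 CPM, with *Eomes* at 196 and 355 CPM. *Cd4* was at 0.717 and 1.66 CPM. The other helper-lineage markers were higher, with *Zbtb7b* at 15.4 and 18.1 CPM and *Cd40lg* at 6.93 and 6.34 CPM. The CD8 chain genes, which the labels and the transgene name, had 158 and 171 CPM for *Cd8a* and 775 and 786 CPM for *Cd8b1*. The 5 B-cell markers summed to 13.5 and 15.2 CPM, mostly on *Cd79b*. The 4 markers of iNKT cells, which the gate could hold, all reached 1 CPM in both libraries and summed to 69.6 and 81.9 CPM. The authors reported *Zbtb16* and *Tbx21* of this list as raised in the CD4- cells of these mice, so the sum does not measure iNKT cells. The myeloid list of 5 genes summed to 14.8 and 16.1 CPM, mostly on *Csf1r* at 9.74 and 11.8 CPM. In it 3 of 5 genes reached 1 CPM in both libraries, while *Lyz2* had 0 and 2 counts. The dendritic list of 4 genes summed to 3.05 and 3.02 CPM, and the epithelial list of 5 genes to 3.71 and 4.19 CPM. The double-positive list summed to 17.3 and 16.1 CPM, mainly on *Dntt*, and the erythroid list to 0.478 and 0.615 CPM, with 3 of its 4 genes at 0.

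*Cbl* and *Cblb* were both far above the floor. *Cbl* encodes c-Cbl, which promotes loss of activated receptors and kinases in thymocytes, and extends on chromosome 9 from 44142976 to 44234049 on the minus strand. Replicate 1 gave 5952 counts and replicate 2 gave 6369, for a level of 374 ± 25.7 CPM (SD, n = 2). *Cblb* encodes Cbl-b, which sets the need for CD28 co-stimulation, and extends on chromosome 16 from 52031225 to 52208048 on the plus strand. It had 1861 and 2166 counts and a level of 122 ± 15.6 CPM (SD, n = 2). Both genes read higher in replicate 2 than in replicate 1, and for each the Wilson 95% confidence intervals of the libraries did not overlap. The intervals were 347 to 365 CPM and 383 to 402 CPM for *Cbl*. They were 106 to 116 CPM and 128 to 139 CPM for *Cblb*. Those of *Nedd4* were also apart, at 80.0 to 88.8 CPM and 113 to 123 CPM. For the other ligases and adaptors described here they overlapped. The share of all genes counted whose intervals were apart was not determined, so such a gap is not shown to be unusual. Such intervals cover the counting error within 1 library only. No molecular identifiers were used and several reads can stem from 1 molecule, so the intervals may be too narrow even for this error. Another relative, *Cblc*, which is known from epithelia, had 0 counts in both libraries.

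The HECT ligases lay below *Cbl* in CPM. *Itch* extends on chromosome 2 from 155133509 to 155226855 on the plus strand, and its product degrades JunB and limits Th2 differentiation. It had 1653 and 1644 counts and a level of 99.99 ± 1.7 CPM (SD, n = 2), so the libraries were nearly alike. *Nedd4* extends on chromosome 9 from 72662346 to 72749852 on the plus strand, and its product is the founding ligase of the family. With counts of 1411 and 1914 it reached 101 ± 23.7 CPM (SD, n = 2), the mean nearest to *Itch* but with the widest spread, relative to its level, of the 10 genes. *Nedd4l* extends on chromosome 18 from 64887705 to 65217828 on the plus strand, and its product is best known for removing sodium channels from the membrane. With 507 and 539 counts it was at 31.7 ± 2.04 CPM (SD, n = 2).

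Among the adaptors, *Ndfip1* was the higher. *Ndfip1*, on chromosome 18 from 38410396 to 38465303 on the plus strand, had 2296 and 2360 counts and a level of 141 ± 5.69 CPM (SD, n = 2). *Ndfip2*, on chromosome 14 from 105258573 to 105309298 on the plus strand, had 727 and 614 counts and a level of 40.6 ± 4.0 CPM (SD, n = 2). Scaled by totals on genes, it was one of the 2 genes that read lower in replicate 2, the other being *Rnf128*.

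Of the remaining ligases *Peli1* was the highest and *Rnf128* the lowest in CPM. *Peli1*, on chromosome 11 from 21091291 to 21150323 on the plus strand, encodes a ligase that targets c-Rel in T cells. It had 5575 and 5651 counts and a level of 340.5 ± 10.4 CPM (SD, n = 2). *Traf6*, on chromosome 2 from 101678429 to 101701669 on the plus strand, encodes a ligase that builds lysine-63-linked chains in NF-κB signalling and had 1149 and 1142 counts, or 69.5 ± 1.15 CPM (SD, n = 2). *Rnf128*, on chromosome X from 139563316 to 139673145 on the plus strand, had 12 and 11 counts in replicates 1 and 2. This equals 0.697 ± 0.0283 CPM (SD, n = 2), with Wilson 95% intervals of 0.410 to 1.25 CPM and 0.378 to 1.21 CPM, which lie above the level of 3 counts. *Rnf128* was the 1 gene of the 10 below 1 CPM, and 9 of 10 reached 1 CPM in both libraries. Of the 15949 genes with at least 10 counts summed, which is the condition for testing and was met by all 10 genes, 79.4% reached this level, and of all genes listed 26.2% did. The plot of CPM per library shows this gap.

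**Figure D1:**
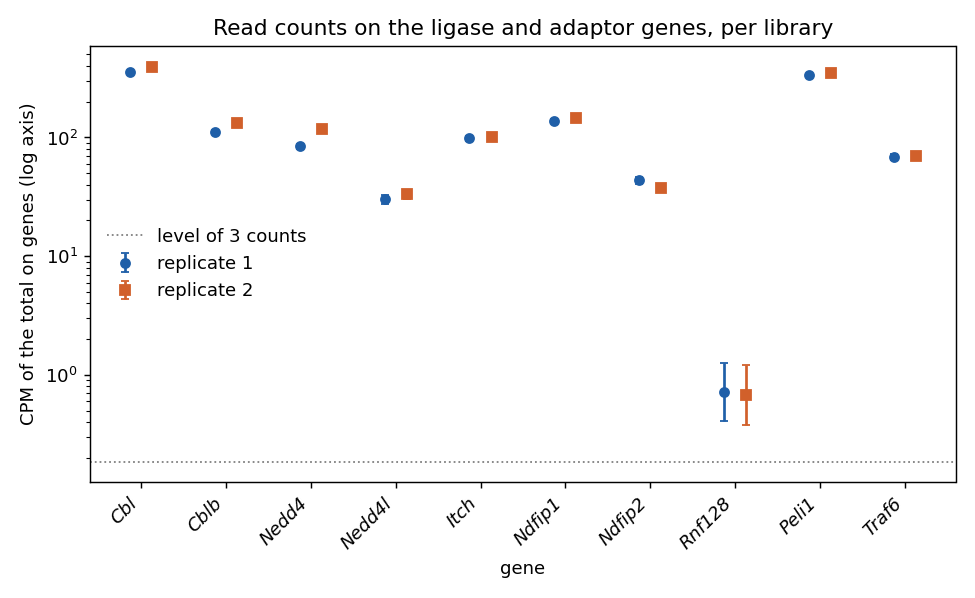
CPM of the total on genes (log axis) for each of the 10 genes in replicate 1 (circles) and replicate 2 (squares), with Wilson 95% intervals as bars and a dotted line at the level of 3 counts in the shallower library. *Rnf128* lies at 0.717 and 0.677 CPM, while the other 9 genes lie between 30.3 and 392 CPM.

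CPM does not account for the length of a transcript, so genes were ordered by counts per kb of merged exon, scaled to a sum of 1000000 over all 46394 genes with a length in the annotation (TPM). Per length, *Peli1* was highest at 169.5 ± 7.88 TPM, followed by *Cbl* at 98.8 ± 8.37 TPM and *Ndfip1* at 72.8 ± 4.10 TPM (SD, n = 2 for each). *Peli1* thus exceeded 95.2% of the 15393 genes with a length and at least 10 counts, *Cbl* 90.2% and *Ndfip1* 86.3%. A middle group followed, with *Cblb* at 38.1 ± 5.48 TPM, *Itch* at 33.6 ± 1.11 TPM, *Nedd4* at 30.1 ± 7.52 TPM and *Traf6* at 28.7 ± 0.938 TPM. Neighbours within this group had overlapping ranges over the 2 libraries and were not told apart by these ranges. *Cblb* was 1.04 times *Itch* in replicate 1 and 1.22 times in replicate 2, so with merged exons their order was the same in both libraries. The order of *Itch* and *Nedd4* was turned between the libraries, with *Itch* 1.32 times *Nedd4* in replicate 1 and 0.971 times in replicate 2. *Nedd4* was 0.882 times *Traf6* in replicate 1 and 1.20 times in replicate 2. Below the median of these genes, 13.6 TPM, were *Ndfip2* at 11.5 ± 0.944 TPM, *Nedd4l* at 5.86 ± 0.470 TPM and *Rnf128* at 0.656 ± 0.0161 TPM. In 6 of the 9 neighbouring pairs the ranges of the libraries were apart, and in 3 they overlapped. With 2 libraries of 1 group there was no test over samples, so the order is given by ranges alone.

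The length chosen moved the middle of the order but not its ends. With the longest transcript, the merged coding sequence or 1 principal coding transcript in place of merged exons, *Peli1* stayed at rank 1, *Nedd4l* at rank 9 and *Rnf128* at rank 10. *Ndfip1* passed *Cbl* with the coding sequence and with the principal transcript. The place of *Traf6* ranged from rank 4 with the coding sequence to rank 8 with the principal transcript, and *Ndfip2*, whose merged exons of 11.55 kb hold 8.78% coding sequence, from rank 6 to rank 8. An annotation that the authors may have used instead was not tested.

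**Figure D2:**
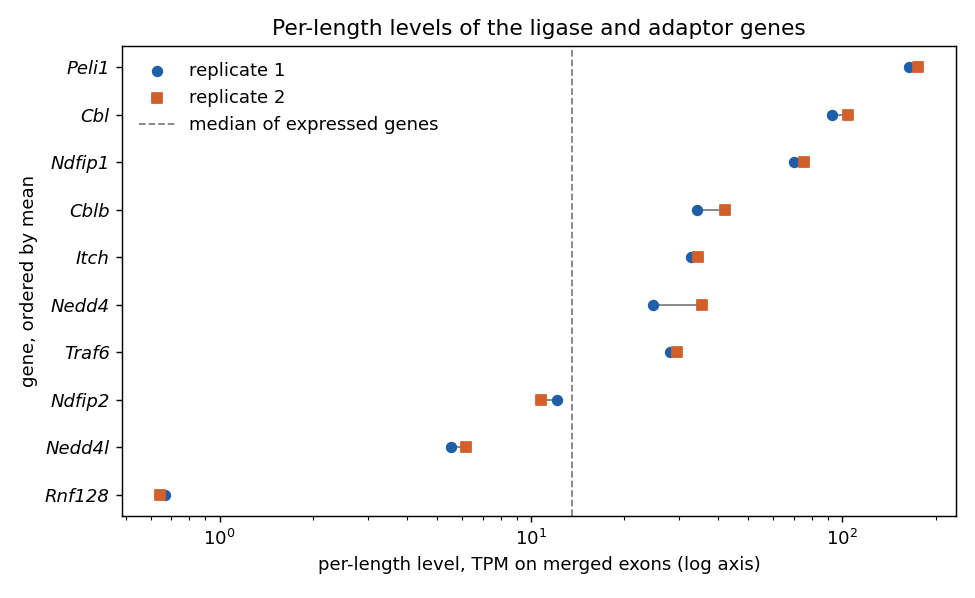
Per-length level in TPM on merged exons (log axis) of the 10 genes in replicate 1 (circles) and replicate 2 (squares), ordered by their mean, with a dashed line at the median of genes with at least 10 counts. *Peli1* lies at 164 and 175 TPM and *Rnf128* at 0.667 and 0.645 TPM, and *Cblb*, *Itch*, *Nedd4* and *Traf6* overlap with their neighbours.

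Each gene was then set within its own family, to ask which relative carried most of the RNA. In the Cbl family *Cbl* took 72.2 ± 1.19% of the summed TPM and *Cblb* 27.8 ± 1.19% (SD, n = 2). The ratio of *Cblb* to *Cbl* per length was 0.369 in replicate 1 and 0.401 in replicate 2, and it was 0.558 with the longest transcript, so *Cbl* was higher with each length tried. Among the adaptors *Ndfip1* took 86.4 ± 1.63% and *Ndfip2* 13.6 ± 1.63%, with a ratio of *Ndfip2* to *Ndfip1* of 0.174 and 0.143. In the Pellino family *Peli1* took 99.9% in both libraries, since *Peli2* had 2 and 3 counts and *Peli3* had 4 and 5.

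The Nedd4 family was spread over more genes. Its 9 members summed to 228 ± 8.97 TPM, and the ligases described here were neither the highest nor the lowest of them. *Smurf2*, which acts on TGF-β receptors and Smads, took 34.5 ± 4.34% and *Smurf1* took 18.2 ± 1.81%. *Itch* followed with 14.7 ± 0.0906%, *Nedd4* with 13.1 ± 2.78%, *Wwp2* with 9.91 ± 0.416%, *Wwp1* with 6.97 ± 0.117% and *Nedd4l* with 2.57 ± 0.105%. *Hecw1* and *Hecw2*, known from neurons, had 0 and 1 and 5 and 12 counts. With the longest transcript *Itch* took 18.2% and *Nedd4* 17.7%, and with the coding sequence 17.3% and 16.6%. The ratio of *Nedd4l* to *Nedd4* was 0.223 in replicate 1 and 0.175 in replicate 2.

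In the TRAF family all 7 genes were found, and *Traf6* ranked 6 with 9.34 ± 0.228% of 308 ± 17.5 TPM. *Traf4* was highest at 26.2 ± 0.0964% and *Traf5* lowest at 7.33 ± 0.719%. In the family of transmembrane RING ligases with a protease-associated domain (PA-TM-RING), 9 genes were compared, and *Rnf128* took 0.237 ± 0.0151% of 277.5 ± 10.9 TPM. *Rnf167*, a lysosomal member, took 67.5 ± 0.504%, *Rnf149* 15.1 ± 0.640%, *Rnf130* 13.4 ± 1.33% and *Rnf13* 3.69 ± 0.165%. *Rnf133*, *Rnf148* and *Znrf4* had 0 counts in both libraries, which allows levels of up to 3 counts.

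**Figure D3:**
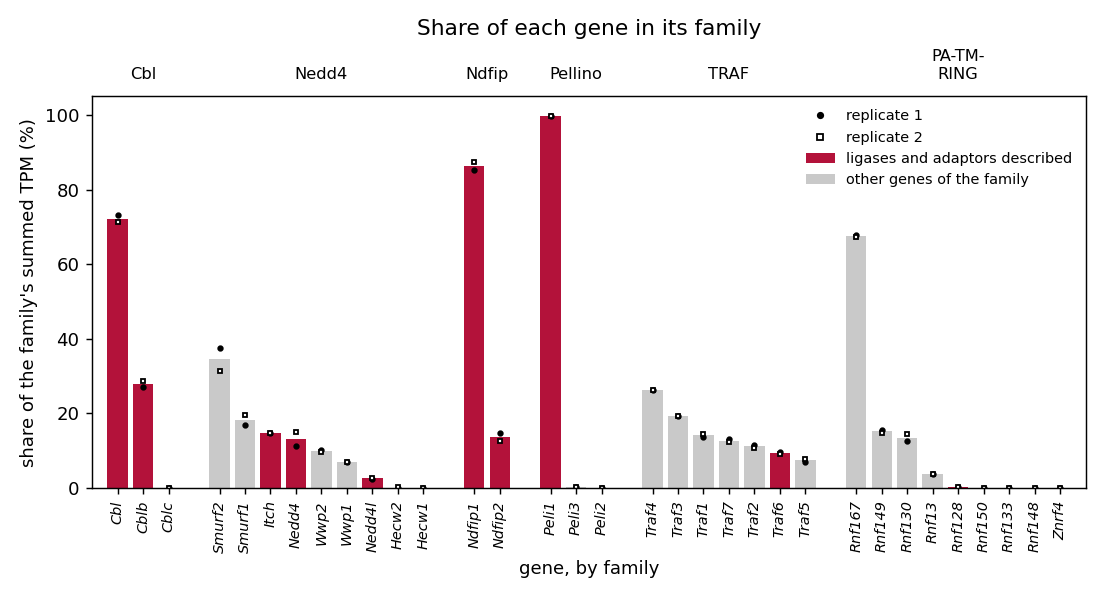
Share of each gene in the summed TPM of its family, in percent, as bars for the mean of the 2 libraries and points for each replicate, with the ligases and adaptors described in red and other family genes in grey. *Peli1*, *Ndfip1* and *Cbl* hold 99.9%, 86.4% and 72.2% of their families, while *Rnf128* holds 0.237%.

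For the genes with a promoter in the RefSeq table (GRCm38.p6, 250 bases before to 50 after the start), the number of CpG dinucleotides was counted, since most widely expressed genes start in CpG-rich sequence. A promoter was found for 7 of the 10 genes, and *Itch*, *Nedd4l* and *Ndfip1* had none in the table. Across all 32851 promoters the median was 7 CpG, with quartiles of 3 and 20. *Cbl* had 43, *Rnf128* 26, *Peli1* 20, *Traf6* 19, *Cblb* 17 and *Ndfip2* 15, and the 2 starts of *Nedd4* had 35 and 13. *Rnf128*, the lowest of the 10 in RNA, thus had more CpG than 4 of the genes with higher RNA levels. The 250 bases before the start are printed for *Cbl*, which had the most CpG, and for *Rnf128*, which had the lowest RNA level, with CpG in capitals and from 5′ to 3′ on the strand of the gene. The *Cbl* sequence is chr9:44234047-44234296 on the minus strand. The *Rnf128* sequence is chrX:139610370-139610619 on the plus strand, before a start that lies 47304 bases from the GENCODE gene start, and overlaps none of its exons.
Cbl: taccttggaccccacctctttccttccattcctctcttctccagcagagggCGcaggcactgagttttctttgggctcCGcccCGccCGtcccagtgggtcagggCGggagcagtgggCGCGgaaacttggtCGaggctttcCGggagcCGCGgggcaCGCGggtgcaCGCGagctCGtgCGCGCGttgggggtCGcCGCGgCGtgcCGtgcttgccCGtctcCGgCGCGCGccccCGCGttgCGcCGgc
Rnf128: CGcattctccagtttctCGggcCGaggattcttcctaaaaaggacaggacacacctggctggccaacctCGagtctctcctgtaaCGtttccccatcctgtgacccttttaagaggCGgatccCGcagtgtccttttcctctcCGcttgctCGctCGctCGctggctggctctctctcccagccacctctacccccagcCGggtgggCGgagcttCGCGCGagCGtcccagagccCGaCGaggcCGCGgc
They hold 33 and 21 CpG. Promoter CpG is a feature of the sequence, and methylation was not measured.

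To see how stable these levels were, the counts of the 2 libraries were compared for each gene with an exact binomial test, two-sided and adjusted after Benjamini and Hochberg over all 15949 genes tested. This test compares the libraries, not conditions. The labels give neither the sex of the mice nor their number per library. *Ddx3y* was read in replicate 1 alone and *Xist* almost only in replicate 2, so the libraries came from different mice, and mouse, sex and library preparation cannot be told apart in the differences between them. A call needed an adjusted p under 0.05 and a difference of at least 2-fold. None of the 10 genes was called (0 of 10), against 1.52% of all genes tested, and log2 ratios of replicate 2 to replicate 1 ranged from -0.20 to 0.48. At an unadjusted p under 0.05 in the exact binomial test there were 5 of 10, against 27.7% of all genes tested. The exact test of edgeR, run with an assumed biological coefficient of variation (BCV) of 0.1 to allow for variation between samples, gave fewer calls. In it 0 of 10 were called, against 0.376% of all genes tested, and 1 of 10 had an unadjusted p under 0.05, against 5.17%. The median absolute log2 ratio was 0.11 over the 10 genes and 0.17 over all genes tested, which have lower counts on the whole.

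Leaving the fold aside, 3 of the 10 genes passed the adjusted p, against 16.3% of all genes tested. All 3 were higher in replicate 2, as were 82.7% of the 2596 genes that passed. This share holds for scaling by totals on genes. Of the genes called at 2-fold, 150 were higher in replicate 2 and 92 in replicate 1 with these totals. With TMM library sizes from edgeR the numbers were 98 and 99. *Nedd4* was higher in replicate 2, with 84.3 CPM in replicate 1 and 118 CPM in replicate 2, a log2 ratio of 0.48 (exact binomial test, adjusted p = 1.27e-19). *Cblb* followed with 111 and 133 CPM and a log2 ratio of 0.26 (exact binomial test, adjusted p = 3.63e-07). *Cbl* had 356 and 392 CPM and a log2 ratio of 0.14 (exact binomial test, adjusted p = 2.27e-06), and it passed no longer with TMM library sizes, where the log2 ratio was 0.06 and the adjusted p 0.104. The median log2 ratio of all genes tested was 0.08, and 56.0% of them differed by more than *Cbl* did. With edgeR's exact test the adjusted p was 0.761 for *Nedd4* and 1.0 for *Cblb* and *Cbl*. The summed innate memory-like markers were also higher in replicate 2, at 904 and 1182 CPM with 4 of 4 past the adjusted p and 0 of 4 called. The mature T-cell markers summed to 4760 and 4270 CPM. In that list 8 of 12 passed the adjusted p, against 16.3% of all genes tested, and 0 of 12 were called. Of those that passed, only *Cd27* was higher in replicate 2. *Xist* and *Ddx3y* also separated the libraries. The part of any of these in the differences of *Nedd4* and *Cblb* was not tested.

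The other 7 genes did not pass the adjusted p, which does not show that they were equal. Among these *Ndfip2* differed most, and by more than *Cbl*, with 43.4 CPM in replicate 1 and 37.8 CPM in replicate 2 and a log2 ratio of -0.20 (exact binomial test, adjusted p = 0.0628). It passed with TMM library sizes, at a log2 ratio of -0.28 and an adjusted p of 0.00760. The log2 ratios were 0.13 for *Nedd4l*, 0.08 for *Ndfip1*, 0.06 for *Peli1*, 0.03 for *Itch* and 0.03 for *Traf6*, with adjusted p-values of the exact binomial test from 0.105 to 0.801. With TMM library sizes *Peli1*, *Itch* and *Traf6* read lower in replicate 2, at log2 ratios of -0.01, -0.04 and -0.04, and did not pass. The X-linked *Rnf128*, at 12 and 11 counts, had a log2 ratio of -0.08, beside a median of 0.08 over 441 X-linked and 0.08 over 14921 autosomal genes. At this depth only large differences of *Rnf128* could have been detected.

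**Figure D4:**
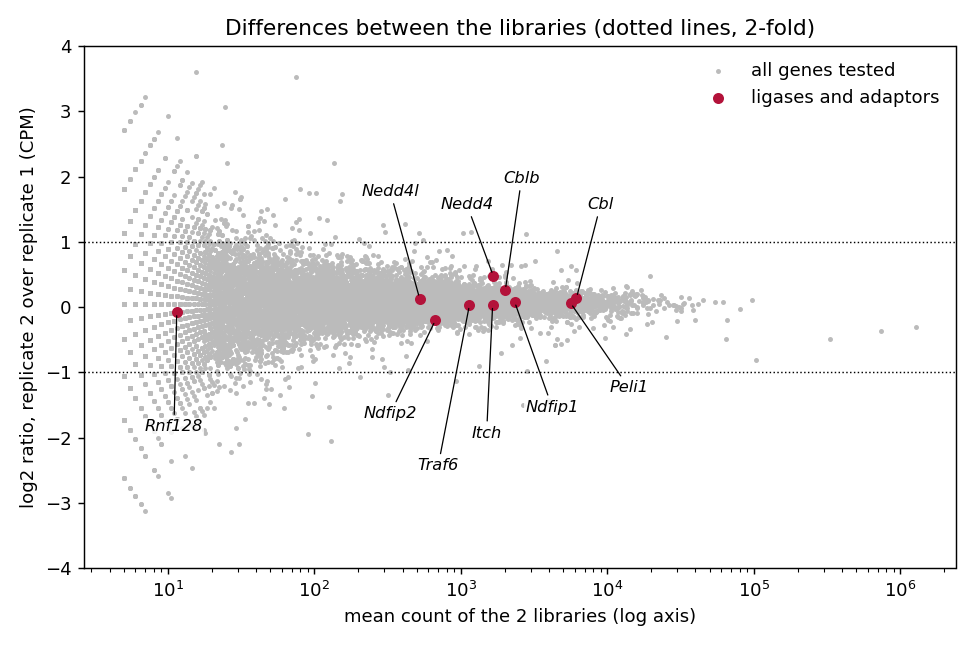
Log2 ratio of replicate 2 to replicate 1 in CPM against the mean count of the 2 libraries (log axis), for all genes tested (grey) and the 10 ligases and adaptors (red), with dotted lines at 2-fold. The 10 genes lie between -0.20 and 0.48, inside the dotted lines, and 21 grey genes lie beyond the axis limit of 4 on either side.

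Relatives of these ligases, genes that work with or induce them, and other ligases of T cells were counted from 9 lists that together hold 96 genes. Of these, 87 reached 1 CPM in both libraries, against 79.4% of all genes tested and 26.2% of all genes listed. None of the 88 that could be tested was called between the libraries (exact binomial test), against 1.52% of all genes tested. At any fold 20 passed the adjusted p, against 16.3% of all genes tested. Of these 20 genes 14 were higher in replicate 2, against 82.7% of all genes that passed. All 10 enzymes that activate and carry ubiquitin were found. *Uba1*, the main activating enzyme, was highest at 324 ± 14.2 TPM and *Ube2v1* lowest at 5.06 ± 0.547 TPM. *Ube2l3*, a partner of HECT ligases and of Cbl, was at 61.6 ± 3.02 TPM, and *Ube2n*, the partner of TRAF6, at 55.1 ± 2.90 TPM.

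Among 14 adaptors and partners, all reached 1 CPM in both libraries, from *Arrdc3* at 5.76 ± 0.101 TPM to *Txnip*, an arrestin-like protein bound by Itch, at 855 ± 147 TPM. In this list 5 of 14 genes passed the adjusted p, against 16.3% of all genes tested. All 5 were higher in replicate 2, the direction of most genes that passed when scaled by totals on genes. One was *N4bp1*, which encodes a Nedd4-binding protein, with 1748 and 2654 counts and a log2 ratio of 0.65 (exact binomial test, adjusted p = 3.38e-46), named after its values were seen. The 9 deubiquitinases were all found, from *Otud7b* at 11.8 ± 0.453 TPM to *Usp18* at 112 ± 3.92 TPM. In this list 0 of 9 passed the adjusted p, against 16.3% of all genes tested. *Otub1*, known to act on GRAIL, was at 93.2 ± 7.67 TPM, and *Usp9x*, known to protect Itch, was at 46.6 ± 1.17 TPM.

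All 16 listed substrates reached 1 CPM in both libraries, with a median of 141 TPM. The adjusted p was passed by 7 of the 16, against 16.3% of all genes tested. Of these, *Zap70*, *Lck*, *Fyn* and *Vav1* were higher in replicate 2, at log2 ratios of 0.15 to 0.22. These ratios were scaled by totals on genes and are not given with TMM library sizes, with which *Cbl*, at 0.14 by totals, passed no longer. *Cd3e*, *Jun* and *Smad7* were lower. The median log2 ratio of all genes tested was 0.08, and with counting error alone in the test, genes with high counts pass at small differences. *Lck*, the kinase that Cbl restrains, was highest at 903 ± 86.2 TPM, and *Jun*, a target of Itch, was lowest at 5.76 ± 1.76 TPM. *Junb*, the better known target of Itch, was at 116 ± 1.45 TPM, and *Rel*, the target of Pellino 1, at 25.9 ± 0.247 TPM. Of the 6 listed transcription factors that induce such ligases, all were found, from *Egr3* at 11.9 ± 0.956 TPM to *Foxo1* at 98.8 ± 0.560 TPM, and *Egr2* was at 27.6 ± 0.730 TPM. The 14 other ligases of T cells were all found as well, with a median of 34.3 TPM and *Skp2* lowest at 3.57 ± 0.167 TPM. Of these 14 genes 2 passed the adjusted p, against 16.3% of all genes tested. All values in these lists are levels in the transgenic cells, and protein and ligase activity were not measured.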

How the data were processed

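Poly(A) RNA of the 2 libraries was sequenced as single-end reads of 50 bases. The authors aligned the reads to mm10 with TopHat2 2.1.1 and deposited raw counts per gene made with HTSeq 0.6.1, which leaves out reads aligned at several places. The annotation and strand setting are not given in the sources used here. Reads on no gene (55.9% of uniquely aligned reads in each library) or on several genes were left out of the totals.

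Counts were divided by the total on genes to give CPM, with Wilson intervals at 95%. Merged exon lengths came from GENCODE M21 and were matched by symbol for 46394 of 48321 genes. Genes with at least 10 counts summed over the libraries entered the exact binomial test (scipy 1.17.1, statsmodels 0.14.6), and edgeR 4.0.16 and DESeq2 1.42.0 gave other library sizes and the exact test with an assumed coefficient of variation. On simulated counts for 48321 genes, 200 of 200 genes with a 4-fold difference were recovered and 2 unchanged genes were called. The simulation held counting error only, without variation between mice, and its changed genes were taken from well-counted genes. It therefore checks the code and does not give the rate of wrong or missed calls in these libraries. The rule named the 10 genes, *Xist*, *Ddx3y* and the genes with the highest and lowest per-length level of each list, of which some are not reported here. Family relatives, single markers, *N4bp1*, the partners *Ube2l3*, *Ube2n*, *Otub1* and *Usp9x*, the substrates other than *Lck* and *Jun*, and *Egr2* were chosen after their values were seen. The members and lists were chosen with earlier results of these data known.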

Additional observations from a re-analysis of the deposited data

How the results depend on the processing

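No paired analysis was possible because there was 1 group, so no replicate number was shared between groups. Leaving the 392 mitochondrial and ribosomal RNA genes (15.2% and 12.2% of counts) out of the totals raised the levels to 433 CPM for *Cbl*, 141.5 for *Cblb*, 116 for *Itch*, 164 for *Ndfip1*, 47.1 for *Ndfip2*, 36.8 for *Nedd4l*, 117 for *Nedd4*, 395 for *Peli1*, 0.808 for *Rnf128* and 80.5 for *Traf6*. The number of genes that differed between the libraries was 242, and it was 55 with at least 100 counts, 60 with edgeR's exact test and 2596 with no fold minimum. Of the 242 genes 150 were higher in replicate 2 and 92 in replicate 1, while TMM and DESeq2 sizes gave 98 and 99. With the merged coding sequence as length, ranks were 2 for *Ndfip1*, 3 for *Cbl*, 4 for *Traf6*, 5 for *Cblb*, 6 for *Ndfip2*, 7 for *Itch* and 8 for *Nedd4*. With the longest transcript they were 4 for *Itch* and 5 for *Cblb*. With 1 principal transcript, a choice made after seeing the data, they were 2 for *Ndfip1*, 3 for *Cbl*, 4 for *Itch*, 5 for *Cblb*, 7 for *Ndfip2* and 8 for *Traf6*. Leaving out 1 library gave ranks of 5 to 6 for *Itch*, 5 to 7 for *Nedd4* and 6 to 7 for *Traf6*. The ratio of *Cblb* to *Cbl* was 0.558 with the longest or principal transcript and 0.321 with the coding sequence, that of *Ndfip2* to *Ndfip1* 0.201 with the coding sequence and 0.205 with the principal transcript, and that of *Nedd4l* to *Nedd4* 0.280 with the coding sequence. In the length and total alternatives only the divisor changed, and the counts were the same. The 2 libraries limit all values, and counts of 12 and 11 limit *Rnf128*.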
